A study of Mus musculus with 7 samples.

Results

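The 5 genes described here form the route from the Cdkn2a locus through Mdm2 to p53: Cdkn2a, Cdkn2b, Trp53, Mdm2 and Mdm4. They were taken from the expression tables by name, and each of the 5 names matched 1 of the 24726 gene entries. The RNA, in 5 libraries, came from C57BL/6 mouse leukaemias of the B-cell acute lymphoblastic kind (B-ALL). The 3 Pax5-Etv6 B-ALL libraries have the genotype Cdkn2ab+/-Pax5Etv6/+: one Pax5 allele carries the fusion with Etv6, and one of the paired Cdkn2a-Cdkn2b copies is missing. Their RNA is of whole, unsorted lymph node taken ex vivo. The 2 control B-ALL libraries have the genotype Trp53-/- NrasG12D/+ with Myc delivered by retrovirus, and their RNA is of whole marrow kept for a short time in culture. Genotype, tissue and culture change together between the groups. The label of the library type changes with them, strand-specific for Pax5-Etv6 B-ALL and blank for the controls. The parts of all these in any difference cannot be told apart. Which piece of Trp53 is deleted is not stated. Nor do the labels tie each library to an animal of its own, and p-values therefore measure the spread between samples that may be technical repeats.

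Cdkn2a gives rise to 2 unrelated proteins from alternative first exons. p16Ink4a blocks the cyclin D-dependent kinases Cdk4 and Cdk6 and so keeps the retinoblastoma protein active. p19Arf binds Mdm2, the ubiquitin ligase that marks p53 for destruction, and so lets p53 accumulate. The neighbouring gene Cdkn2b encodes p15Ink4b, which acts on the same kinases as p16Ink4a. Mdm4, a relative of Mdm2, covers the activation domain of p53. Mdm2 is itself switched on by p53, which closes a feedback loop. Loss of this locus or of p53 is common in leukaemias, and Arf is well known to be induced by oncogenes such as Myc.

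The expression values are TPM (transcripts scaled for length and to an equal total in every library) for each gene as a whole, so the transcripts that encode p16Ink4a and p19Arf were not separated. To show the 2 starts that the single Cdkn2a value joins, the 250 bases before each RefSeq start (build GRCm38.p6, minus strand, 5′ to 3′) are given, for p19Arf at chr4:89294620-89294869 and for p16Ink4a at chr4:89282193-89282442. Capitals mark matches to the Dmtf1 motif CCCGNATGC and to the E2F motif, searched as TTTCCCGC and TTTGGCGC on both strands. The E-box CACGTG, the letters that Myc is known to bind, was searched in the same way. Dmtf1 is a transcription factor known to act on the Arf start, and E2F factors drive genes of DNA replication.
Cdkn2a, p19Arf start: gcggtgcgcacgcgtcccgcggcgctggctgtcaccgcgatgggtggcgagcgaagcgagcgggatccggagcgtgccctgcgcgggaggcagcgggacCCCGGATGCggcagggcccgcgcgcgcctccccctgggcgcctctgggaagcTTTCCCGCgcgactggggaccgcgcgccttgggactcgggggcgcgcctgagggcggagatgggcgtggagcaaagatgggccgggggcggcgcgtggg
Cdkn2a, p16Ink4a start: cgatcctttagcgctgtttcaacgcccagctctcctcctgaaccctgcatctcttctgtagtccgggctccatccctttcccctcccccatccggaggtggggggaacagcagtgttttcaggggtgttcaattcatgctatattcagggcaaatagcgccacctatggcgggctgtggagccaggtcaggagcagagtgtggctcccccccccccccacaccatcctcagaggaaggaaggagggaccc
The p19Arf window held 1 match to the Dmtf1 motif and 1 to the E2F motif, from 151 to 143 and from 99 to 92 bases before the start. The p16Ink4a window and the windows before the starts of Cdkn2b, Trp53, Mdm2 and Mdm4 held neither, and no window of the 5 members held the E-box. Of 32851 windows of this length before RefSeq starts, 0.466% held the Dmtf1 motif, 1.3% the E2F motif and 6.02% the E-box. A match is a description of the letters and not evidence of binding. G and C made up 78.4% of the p19Arf window and 60% of the p16Ink4a window.

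Whole reads could be recovered from the TPM values, and their totals, which are lower bounds, ran from 20110584 to 50994548 per library. Pearson correlations of log2(TPM + 1) across tested genes were 0.955 to 0.978 within groups and 0.772 to 0.846 between them. Differences over 11805 genes were tested with limma on log2(TPM + 1), with calls made where the p, adjusted by Benjamini-Hochberg, was under 0.05. Of all genes tested, 51.7% were called, 21.9% higher and 29.7% lower in Pax5-Etv6 B-ALL. These 2588 higher and 3511 lower calls became 1410 and 1954 without control replicate 1. In 72.2% of genes the libraries of the groups did not overlap. Calls are therefore frequent here. Trp53 was called higher, but the controls lack it by genotype, so its call is not set against that background. Of the other members, Cdkn2a and Mdm4 were called lower and Cdkn2b and Mdm2 were not called, which is not far from the background. A gene below 1 TPM in one group was tested only if it was high enough in the other, so for such genes the filter fixed the direction of any call. Genes that define B-lineage cells were present in every library. Of 10 B-lineage markers, 5 were called higher in Pax5-Etv6 B-ALL, with sums of 9813 to 12429 TPM against 3306 to 4754 TPM. The summed levels of each other marker list were also higher in the whole lymph nodes, with no overlap between groups. The summed level of 12 macrophage and monocyte markers was 178 to 601 TPM in Pax5-Etv6 B-ALL and 26.0 to 73.4 TPM in control B-ALL, with 5 of 9 tested called higher. For 10 neutrophil markers the sums were 32.2 to 258 and 0.720 to 0.879 TPM. Of these, 8 passed the filter, each through Pax5-Etv6 libraries alone, so a count of their calls says nothing further. Relative to its size, the gap between groups was widest for this neutrophil list. For 10 stromal and endothelial markers they were 313 to 995 and 80.5 to 92.0 TPM, with 5 of 7 called higher. Of those called, Col3a1 and Pdgfrb passed the filter through Pax5-Etv6 libraries alone. Pecam1 made up most of the control sums, at 76.9 and 79.9 TPM. It also made up most of the sums in Pax5-Etv6 replicates 1 and 3, at 233 and 293 TPM, but not in replicate 2, at 222 TPM. For 11 T- and NK-cell markers the sums were 342 to 816 and 98.1 to 171 TPM, with 3 of 4 called higher, although Cd3e was at most 0.637 TPM. Most of these sums lay in Lck (181 to 465 TPM against 6.80 and 11.9 TPM) and Il7r, which was not called. Il7r had 152 to 380 TPM against 163 and 85.6 TPM. The called Cd4 and Trac passed the filter through Pax5-Etv6 libraries alone. For 6 erythroid markers the sums were 13.3 to 76.0 and 0.750 to 1.08 TPM. The erythroid markers tested, Alas2 and Klf1, passed the filter through Pax5-Etv6 libraries alone, so their calls say nothing further. Vsig4 (macrophage), Ccl21a (stroma), Hba-a1 and Hbb-b1 (erythroid) were listed at 0 in all 5 libraries. In bulk tissue, fewer cells of a type and less RNA per cell cannot be told apart, and the part of these cells in the results below was not tested.

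Trp53, which encodes p53, was the check on the control genotype. It stood at 486, 454 and 490 TPM in Pax5-Etv6 B-ALL replicates 1, 2 and 3 and at 11.3 and 20.5 TPM in control B-ALL replicates 1 and 2. The Pax5-Etv6 libraries were close together, the controls were far below them, and the lowest Pax5-Etv6 library was 22.1-fold above the higher control. The Pax5-Etv6 mean exceeded that of the controls 30.0-fold (477 ± 19.8 TPM, SD, n = 3, against 15.9 ± 6.52 TPM, SD, n = 2). On the log2(TPM + 1) scale, on which every fold change below is given and which understates the change of low genes, the difference was 4.88 ± 0.24 (SE, limma adjusted p = 0.00037). Only 0.762% of tested genes differed more in size. Reads were still assigned to Trp53 in the Trp53-/- leukaemias, 439 and 469 of them, and their counting intervals (95%, exact Poisson) were 10.3 to 12.4 and 18.7 to 22.5 TPM. Only counting error is in these intervals, because PCR duplicates are not molecules of their own. The 2 controls thus differed by 1.82-fold, beyond counting error. Which exons these reads cover cannot be read from a value per gene.

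Wrap53, the antisense neighbour whose start lies beside that of Trp53, was also higher in Pax5-Etv6 B-ALL, at 70.2, 79.9 and 86.2 TPM against 27.4 and 35.1 TPM, with no overlap (1.31 ± 0.19, limma adjusted p = 0.00237). The labels call the Pax5-Etv6 libraries strand-specific and leave the field blank for the controls, so reads from the stretch shared by Trp53 and Wrap53 may not be told apart in the controls. The same limit may hold for any other entry below that overlaps a gene on the other strand. The part of library type in these values was not tested.

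**Figure D1:**
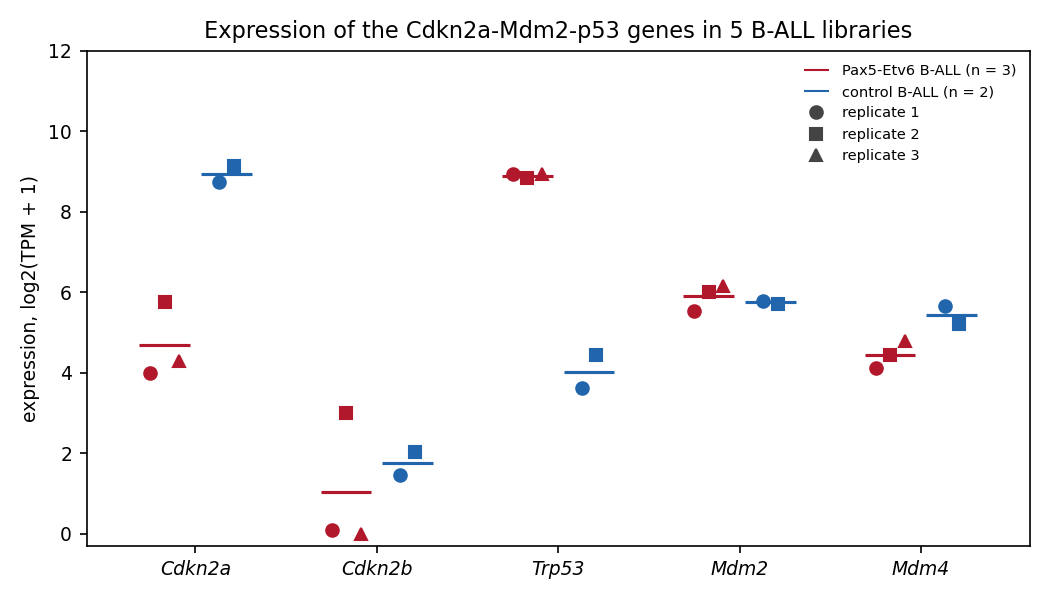
Expression of the 5 genes as log2(TPM + 1) on the vertical axis, with 1 point per library, a shape per replicate number and a line at each group mean (Pax5-Etv6 B-ALL, n = 3; control B-ALL, n = 2). Cdkn2a and Trp53 lie on opposite sides in the 2 groups, and Pax5-Etv6 replicate 2 is the highest of its group for Cdkn2a (53.005 TPM) and Cdkn2b (7.03 TPM).

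Cdkn2a moved the opposite way to Trp53. The 3 Pax5-Etv6 libraries had 15.03, 53.005 and 18.4 TPM, while control replicates 1 and 2 reached 426 and 558 TPM. Every control library was at least 8.04-fold above every Pax5-Etv6 library, although replicate 2 of Pax5-Etv6 B-ALL had 3.53 times the level of replicate 1. The control mean was 17.1-fold higher (28.8 ± 21.0 TPM, SD, n = 3, against 492 ± 93.3 TPM, SD, n = 2), and the log2 fold change was -4.25 ± 0.51 (SE, limma adjusted p = 0.00143, 95% interval -5.48 to -3.03). A total of 1.30% of tested genes differed more in size. The Pax5-Etv6 values rest on 185, 547 and 274 reads and the control values on 10067 and 7756 reads. The interval of replicate 2 (48.7 to 57.6 TPM) does not overlap those of replicates 1 (12.9 to 17.4 TPM) and 3 (16.3 to 20.7 TPM). Cdkn2a thus varied beyond counting error among the 3 libraries of this genotype. By level, Cdkn2a ranked 247th and 390th among all entries in the controls and no higher than 3762nd in Pax5-Etv6 B-ALL.

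Cdkn2b was low in every library, and its groups overlapped. It had 0.0663, 7.03 and 0 TPM in Pax5-Etv6 B-ALL and 1.73 and 3.11 TPM in control B-ALL. Replicate 2 was the highest of all 5 libraries with 89 reads, while replicate 1 had 1 read and replicate 3 none; 3 reads in replicate 3 would be 0.164 TPM. The controls had 50 and 53 reads. Cdkn2b was not called (-0.71 ± 0.92, limma adjusted p = 0.542), and the interval of its difference (-2.93 to 1.51) covers changes in both directions. Without Pax5-Etv6 replicate 2 it was called lower in Pax5-Etv6 B-ALL (-1.70 ± 0.35, adjusted p = 0.0112). The highest values of both Cdkn2a and Cdkn2b in Pax5-Etv6 B-ALL were thus in replicate 2. That library also had the highest summed level of its group for macrophage and monocyte markers, at 601 TPM against 178 and 217 TPM in replicates 1 and 3. The same held for stromal and endothelial markers, at 995 TPM against 313 and 465 TPM. The part of those cells in the values of replicate 2 was not tested.

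Mdm2 did not differ between the groups beyond the spread between libraries. Its level was 45.6, 63.7 and 70.2 TPM in Pax5-Etv6 B-ALL and 53.8 and 51.6 TPM in control B-ALL. Both controls fell inside the range of the Pax5-Etv6 libraries (59.9 ± 12.8 TPM, SD, n = 3, against 52.7 ± 1.56 TPM, SD, n = 2). The log2 fold change was 0.16 ± 0.22 (limma adjusted p = 0.566) with a 95% interval of -0.37 to 0.68, so differences past these bounds in either direction lie outside it. At 1531 to 3469 reads per library, the spread of Mdm2 in Pax5-Etv6 B-ALL is beyond counting error.

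Mdm4 was lower in Pax5-Etv6 B-ALL. It had 16.3, 20.7 and 26.7 TPM there and 49.5 and 35.8 TPM in the controls. The groups did not overlap, but the gap was narrow, with the lower control 1.34-fold above the highest Pax5-Etv6 library. The mean was 21.2 ± 5.19 TPM (SD, n = 3) against 42.7 ± 9.66 TPM (SD, n = 2), a 2.01-fold difference (-0.98 ± 0.27, limma adjusted p = 0.0231). A total of 41.1% of tested genes differed more in size. The call was lost without control replicate 1 (-0.76, adjusted p = 0.14) and without Pax5-Etv6 replicate 2 (-0.98, adjusted p = 0.0595), within a range of adjusted p from 0.0195 to 0.14 over 13 alternatives.

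**Figure D2:**
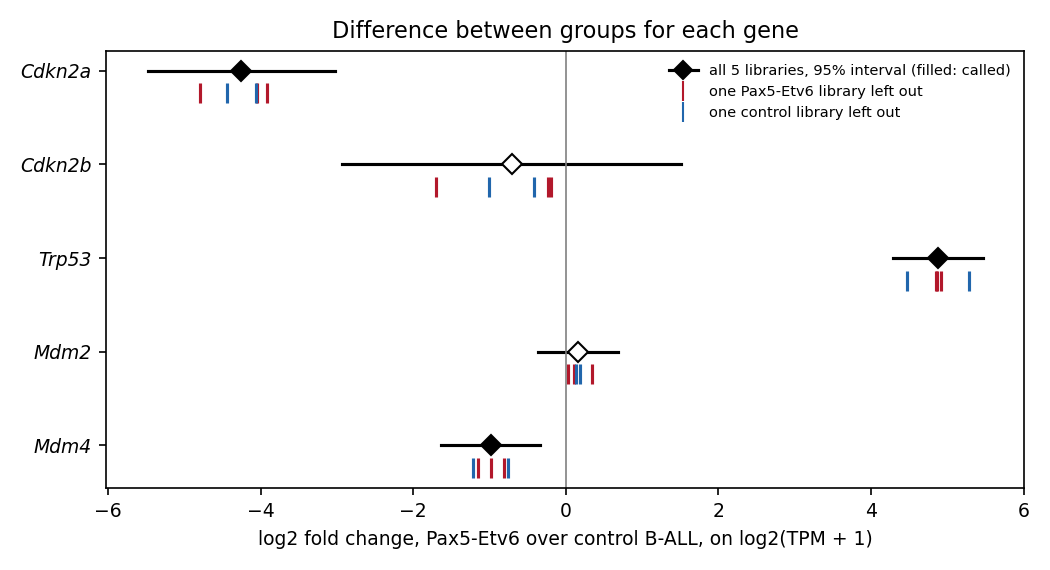
Log2 fold change of each gene, Pax5-Etv6 over control B-ALL, on the log2(TPM + 1) scale (horizontal axis); diamonds give the fit to all 5 libraries with 95% intervals (filled where called), and ticks the value with 1 library left out. Trp53 (4.88) and Cdkn2a (-4.25) stay far from 0 with any library left out, and the interval of Cdkn2b runs from -2.93 to 1.51.

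The order of the genes by level differed between the groups. TPM is given per length, so genes can be set side by side. In Pax5-Etv6 B-ALL, Trp53 stood highest and Cdkn2b lowest, and the ranges of Cdkn2a (15.03 to 53.005 TPM), Mdm2 (45.6 to 70.2 TPM) and Mdm4 (16.3 to 26.7 TPM) overlapped in part, with Mdm2 above Mdm4 in every library. In control B-ALL the order of the means was Cdkn2a, Mdm2, Mdm4, Trp53 and Cdkn2b, and no ranges of neighbours in this order overlapped. Mdm2 had 0.0938, 0.140 and 0.143 times the TPM of Trp53 in the 3 Pax5-Etv6 libraries and 4.76 and 2.52 times in the 2 controls. Mdm4 had 0.0336, 0.0455 and 0.0544 times the TPM of Trp53 in Pax5-Etv6 B-ALL and 4.38 and 1.75 times in the controls. Both p53 inhibitors were thus below Trp53 in every Pax5-Etv6 library and above it in every Trp53-/- library. Because the controls lack Trp53 by genotype, these ratios largely restate its loss and are no separate result about the inhibitors. The log2 difference of the Mdm2 to Trp53 ratio, taken without a pseudocount, was -4.81, and -4.72 with a pseudocount of 1 TPM. Both are close in size to the 4.88 of Trp53 itself on log2(TPM + 1), while Mdm2 was not called.

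Mdm2 stood at 2.79, 3.08 and 2.63 times Mdm4 in Pax5-Etv6 B-ALL and at 1.09 and 1.44 times in the controls. The geometric means were 2.83 and 1.25, a difference of 1.18 on the log2 scale, and the groups did not overlap. Cdkn2a was below Mdm2 in every Pax5-Etv6 library, at 0.330, 0.832 and 0.262 times its TPM, and above it in the controls, at 7.92 and 10.8 times. For each of these 4 ratios the exact two-sided permutation test gave p = 0.1 (adjusted p = 0.1 over the 4), which is the smallest that 3 against 2 libraries allow, so none could pass 0.05.

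**Figure D3:**
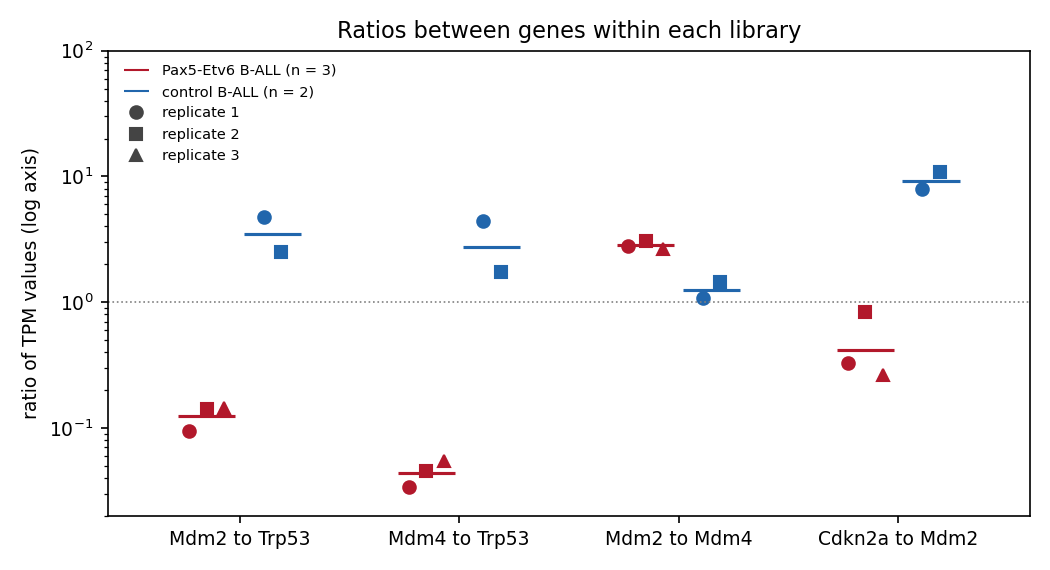
Ratios of TPM between pairs of the genes within each library (log axis; points are libraries, lines the geometric means of each group; the dotted line marks equal levels). Mdm2 lies below Trp53 in all 3 Pax5-Etv6 libraries (0.0938 to 0.143) and above it in both controls (2.52 and 4.76), which are Trp53-/-.

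The genes around the Cdkn2a-Cdkn2b locus were not called. Gene order was taken from RefSeq on GRCm38.p6, and the 8 nearest protein-coding genes with an entry were read on each side. Of these 16 neighbours, 9 were at 0 in all libraries, among them interferon genes such as Ifna1, and 5 were tested. None was called by limma; 1 in each direction had an unadjusted p under 0.05, and voom on recovered reads called 1 higher and 0 lower. Mtap, the nearest expressed neighbour, which salvages methionine, had 128, 93.9 and 155 TPM in Pax5-Etv6 B-ALL and 170 and 133 TPM in control B-ALL (-0.29 ± 0.24, limma adjusted p = 0.346). Its groups overlapped, so the difference in Cdkn2a did not extend to Mtap at a size beyond the spread between libraries.

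Of the 16 neighbours of Trp53, 14 were tested, 3 rose and 4 fell, shares close to the 21.9% and 29.7% over all genes tested. Beside Wrap53, the macrophage marker Cd68 and the factor Sox15 rose, although both calls were lost without control replicate 1 (adjusted p = 0.189 and 0.186) and without control replicate 2 (adjusted p = 0.0558 and 0.123). Sox15, whose entry carries an overlap tag and which passed the filter through Pax5-Etv6 libraries alone, was also lost without Pax5-Etv6 replicate 2 (adjusted p = 0.056). Naa38 fell (-0.85 ± 0.19, limma adjusted p = 0.0122, and 0.0677 without control replicate 1). The other 3 that fell, Atp1b2, Shbg and Sat2, were below 1 TPM in every Pax5-Etv6 library and passed the filter through the controls alone, so their values are given as a description. No fit without a control replicate tested them. Atp1b2, a sodium pump subunit, had 0.446 to 0.686 TPM in Pax5-Etv6 B-ALL and 3.69 and 7.10 TPM in the controls. Shbg, sex hormone-binding globulin, was at 0 reads in each Pax5-Etv6 library, while the controls held 79 and 53 reads (2.70 and 3.08 TPM). Against the TPM of 3 reads in a library, Shbg was at least 12.3-fold lower in Pax5-Etv6 B-ALL. Sat2, an acetyltransferase, had 0, 1 and 0 reads in Pax5-Etv6 B-ALL and 167 and 95 reads in the controls (18.2 and 17.6 TPM).

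**Figure D4:**
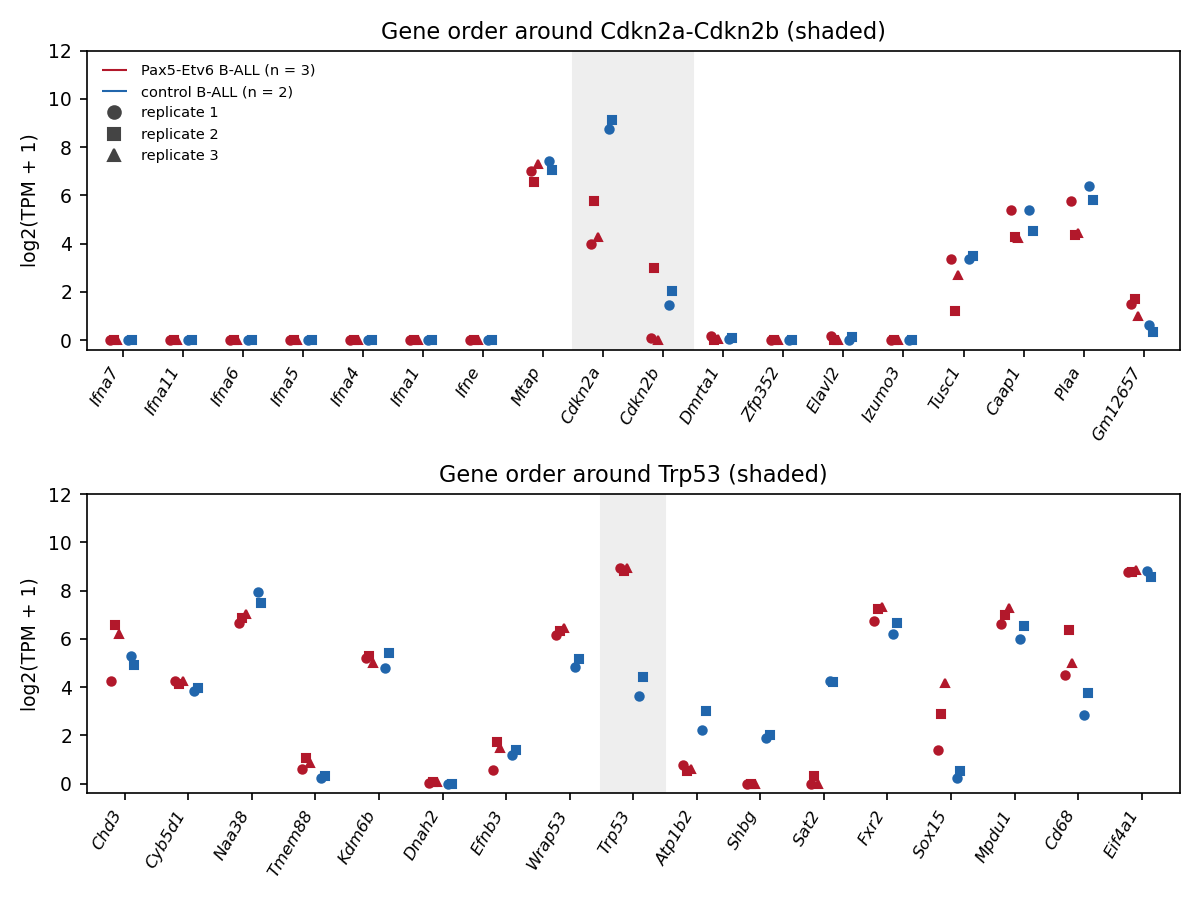
Expression as log2(TPM + 1) in each library for the genes around Cdkn2a-Cdkn2b (top) and Trp53 (bottom), in gene order and not to distance, with the locus shaded. Mtap beside Cdkn2a overlaps between groups, and Atp1b2, Shbg and Sat2 beside Trp53 are higher in the controls.

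The counts for the pathway lists that follow are to be read against 21.9% of all genes tested called higher and 29.7% called lower. Among the other cyclin-dependent kinase inhibitors, 4 of 5 tested rose in Pax5-Etv6 B-ALL and 0 fell (0 also at an unadjusted p under 0.05 and by voom), and the median log2 fold change was 1.43 against -0.11 over all genes tested. Cdkn1a, which encodes p21 and is the best-known p53 target, stood at 97.2 ± 36.3 TPM (SD, n = 3) against 1.97 ± 1.55 TPM (SD, n = 2), a log2 fold change of 5.09 ± 0.43 (limma adjusted p = 0.000602). By library it had 83.2, 138.5 and 70.0 TPM against 0.878 and 3.07 TPM, with replicate 2 again the highest of its group. Cdkn2c, which encodes the Ink4 relative p18Ink4c, rose by 1.55 ± 0.16 (adjusted p = 0.00102) and Cdkn1b, which encodes p27Kip1, by 1.22 ± 0.24 (adjusted p = 0.00706). Cdkn2d, a further Ink4 gene whose entry carries a tag of unstated meaning, rose by 1.43 ± 0.28 (adjusted p = 0.00762), at 5.86 ± 0.963 against 1.54 ± 0.364 TPM. Of the Ink4 genes, Cdkn2c and Cdkn2d were thus higher in Pax5-Etv6 B-ALL and Cdkn2b was not called. The lower value of Cdkn2a joins p16Ink4a and p19Arf, so it does not show a lower Ink4 transcript.

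Of 35 p53 target genes tested, 10 rose, 5 fell and 20 were not called, with a median log2 fold change of 0.01. Among those that rose, Phlda3 (0.0983 and 0.668 TPM in the controls) passed the filter through Pax5-Etv6 libraries alone. Among those that fell, Mgmt (0.0931 to 0.538 TPM in Pax5-Etv6 B-ALL) passed through the controls alone. The filter thus fixed the direction of these calls, which say nothing further. The share of targets called was not above the 51.7% of all genes tested. Besides Cdkn1a, the BH3-only gene Pmaip1 (Noxa) rose, at 11.8 ± 4.13 against 3.14 ± 0.876 TPM (1.59 ± 0.38, limma adjusted p = 0.0139, and 0.0963 without control replicate 1). The apoptosis genes Bax (237 ± 34.1 against 210 ± 35.0 TPM, adjusted p = 0.457) and Bbc3 (Puma; 10.4 ± 4.57 against 19.6 ± 2.87 TPM, adjusted p = 0.0703) were not called, although Bbc3 was called lower without Pax5-Etv6 replicate 2 (adjusted p = 0.0294). The ribosomal protein gene Rps27l fell (-2.47, adjusted p = 0.00183), a value that reads shared with near-identical copies could affect. The kinase gene Plk2 fell by 2.73 (adjusted p = 0.0288), but not without control replicate 1 or 2 (adjusted p = 0.134 and 0.138). Without control replicate 1, 6 targets rose and 2 fell.

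Of 20 Arf partners and ubiquitin pathway genes, 11 fell, 4 rose and the other 5 were without a call (median -0.90 against -0.11 over all genes tested), and 6 fell without control replicate 1. Npm1, the nucleolar protein that holds Arf, fell by 2.08 (limma adjusted p = 0.00284), and Huwe1, a ligase that Arf inhibits, fell by 0.98 (adjusted p = 0.00239). Gnl3, which encodes nucleostemin and carries an overlap tag, fell by 2.63 (adjusted p = 0.000421). The deubiquitinase gene Usp2 had 0.278 to 0.442 TPM against 10.4 and 14.2 TPM and passed the filter through the controls alone. It is counted among the 11 that fell, but it could only be called lower, so its values are given as a description. Rpl11, whose protein binds Mdm2, was higher, at 1353 ± 261 against 191 ± 1.07 TPM (2.80 ± 0.19, adjusted p = 0.000415). Values of Rpl11 and Npm1 may be affected by reads shared with pseudogenes. Rpl5, counted among the 11 that fell, carries an overlap tag and had only 1.32 to 1.96 TPM against 5.05 and 4.05 TPM. Whether that entry gives the level of the whole gene was not tested.

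Of 22 kinases and other modifiers of p53, 3 rose, 12 fell and 7 were not called (median -0.65). Smyd2, a methyltransferase that acts on p53, had the largest difference, at 1.16 ± 0.966 against 118 ± 34.9 TPM (-5.84 ± 0.41, limma adjusted p = 0.000465). The checkpoint kinases Chek1 (-1.89, adjusted p = 0.00642) and Chek2 (-1.87, adjusted p = 0.00197) fell, as did Atr, whose entry carries an overlap tag (log2 fold change -2.58, adjusted p = 0.00285). Of 15 genes known to regulate Mdm2 or Mdm4, 8 fell, 7 were not called and 0 rose (0 also at an unadjusted p under 0.05 and by voom; median -0.59). Prmt5 (-0.96, adjusted p = 0.00257) was among those that fell. So was Usp2, which passed the filter through the controls alone and could only be called lower. Usp7, the deubiquitinase of Mdm2 and p53, fell by 0.93 (adjusted p = 0.00802, and 0.0564 without control replicate 1). Without control replicate 1 only 1 of these 15 fell, and 4 fell without Pax5-Etv6 replicate 2.

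Of 9 tested relatives and binding proteins of p53, 3 rose and 2 fell (median 0.01). Trp53i11 and Trp53i13, both named as p53-inducible, rose by 1.35 ± 0.23 and 1.77 ± 0.39 (limma adjusted p = 0.00437 and 0.0103). Trp53inp1, also named as p53-inducible, was not called (105 ± 7.12 against 115 ± 68.9 TPM, limma adjusted p = 0.989). The call of Trp53i13 was lost without control replicate 1 (adjusted p = 0.0852). Ppp1r13b, which encodes the p53 partner ASPP1, fell by 1.69 (adjusted p = 0.0213). It was no longer called without Pax5-Etv6 replicate 2 or 3 (adjusted p = 0.0512 and 0.0542) and without control replicate 1 or 2 (adjusted p = 0.0809 and 0.127). The number of this list that fell was 0 without Pax5-Etv6 replicate 2 or 3 or control replicate 1, and 1 without Pax5-Etv6 replicate 1 or control replicate 2.

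Genes listed here as activators and repressors of the Cdkn2a locus are likewise set against the 51.7% of all genes tested that were called. Their roles in these leukaemias were not tested. Of 15 activators, 5 rose, 4 fell and 6 were not called (median 0.07), and 2 fell without control replicate 1 or Pax5-Etv6 replicate 2. Myc, supplied by retrovirus in the controls, had 341, 387 and 286 TPM in Pax5-Etv6 B-ALL and 1544 and 2095 TPM in the controls (-2.42 ± 0.20, limma adjusted p = 0.000608). Dmtf1, whose motif is capitalised in the p19Arf window and whose entry carries an overlap tag, fell by 1.77 (adjusted p = 0.00257). Runx1 rose by 1.90 ± 0.24 (adjusted p = 0.00175). Of 19 repressors, most of them Polycomb proteins, 7 rose, 6 fell and 6 were not called (median 0.35). Cbx2 rose by 1.72 ± 0.23 (adjusted p = 0.00194). Bach2, whose entry carries an overlap tag and whose place among the repressors is not established for B-ALL, fell by 1.43 (adjusted p = 0.00391). Bmi1, the Polycomb protein best known for silencing this locus, fell by 1.43 (adjusted p = 0.0114, and 0.0637 without control replicate 1). Bmi1 and Cdkn2a were therefore both lower in Pax5-Etv6 B-ALL.

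Downstream of p16Ink4a and p15Ink4b, the D-type cyclins, which activate Cdk4 and Cdk6, differed in opposite directions. Ccnd1 stood at 3.95 ± 1.57 TPM (SD, n = 3) against 101 ± 41.4 TPM (SD, n = 2; -4.34 ± 0.37, limma adjusted p = 0.000608), and Ccnd2 at 154 ± 101 against 4.54 ± 4.11 TPM (4.84 ± 0.65, adjusted p = 0.00207). Ccnd3, whose entry carries an overlap tag, rose by 2.09 ± 0.53 (adjusted p = 0.0174, and 0.134 without control replicate 1). Their partner kinase gene Cdk4 was not called (682 ± 31.1 against 784 ± 47.1 TPM, adjusted p = 0.259), and Rb1, the retinoblastoma gene, fell by 1.03 (adjusted p = 0.00745). Of the 18 tested genes of the cyclin D, Rb and E2F axis, 3 rose, 7 fell and 8 were not called (median -0.45), and 4 fell without control replicate 1.

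**Figure D5:**
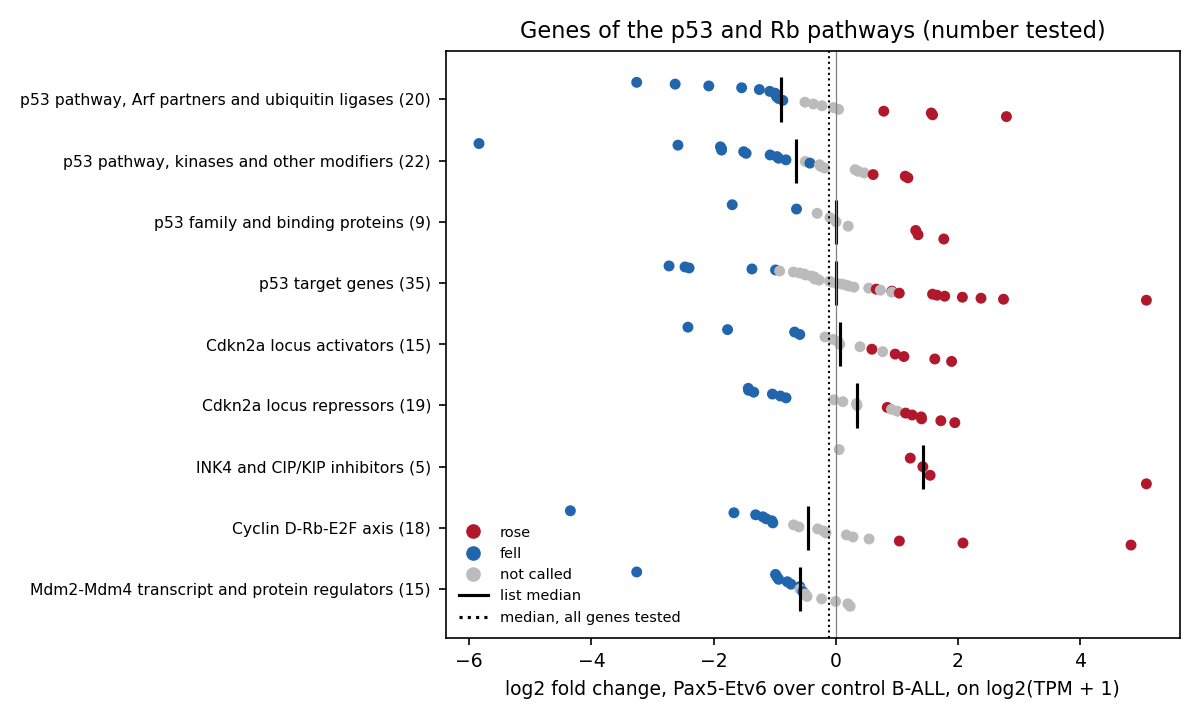
Log2 fold change (Pax5-Etv6 over control B-ALL, on log2(TPM + 1)) of each tested gene of 9 pathway lists, with the list median as a solid line and the median of all genes tested (-0.11) as a dotted line; red points rose, blue fell and grey were not called. Cdkn1a (5.09), in 2 of the lists, and Smyd2 (-5.84) lie at the ends.

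The genes most alike to each member in pattern were read over the 5 libraries. Likeness was the root mean square difference of log2(TPM + 1) after centring each gene on its mean, among the 8088 genes whose mean reached 10 TPM. Those nearest to Cdkn2a were Arsi (0.394), Inpp5a (0.421) and P4ha1 (0.438), values above those of the nearest genes of Trp53, Mdm2 and Mdm4. Those nearest to Trp53 were Tnfaip8l2 (0.167), Fes (0.207) and Socs3 (0.222). Those nearest to Mdm2 included Prim2 (0.0448) and Hgsnat (0.0469), neither of them called. Those nearest to Mdm4 were Mtdh (0.0649), Thyn1 (0.0655) and Nvl (0.0723). Inpp5a, Tnfaip8l2 and Thyn1 carry an overlap tag.

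Of the genes named in the genotypes beside those above, Etv6 was higher in Pax5-Etv6 B-ALL (1.60 ± 0.19, limma adjusted p = 0.00132), and Pax5 and Nras were not called (adjusted p = 0.882 and 0.494). A value per gene does not separate the fusion transcript from those of the intact alleles.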

How the data were processed

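Polyadenylated RNA of mouse B-ALL was analysed in 5 libraries, and 2 chromatin immunoprecipitation samples were not analysed here. The deposited values are TPM, made by the authors, with 1 table per library that sums to 1000000. Per the submitters' processing notes, the tools include HTSeq 0.5.3 and DESeq2 1.4.1 and the build is mm9; no source used here names the aligner, the gene models or how TPM was made. Entry names were read after removing tags, whose meaning is not given ("overlap tag" here for the one that reads so); where a symbol had several entries, lists used the highest.

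The test was limma 3.58.1 (R 4.3.3) on log2(TPM + 1) of genes reaching 1 TPM in 2 or more libraries (mean-variance trend, two-sided, no covariates). The fit was also run on simulated data with few changed genes and an equal spread for every gene. That setting is unlike these data, so the run lends the calls no support. Whole reads, taken as the least whole numbers that return the TPM, were found for each of the 16538 entries detected in 2 or more libraries (100%, tolerance 1e-07); the scale between libraries was set to make them smallest. They set the counting intervals (95%) and the floor of 3 reads. Gene lists (9 pathway and 6 marker lists) share some members.

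Replicate numbers were given here in accession order; they name libraries and pair none. The members and lists were chosen with earlier results of these data known. Named were the members, genes of the genotypes, called neighbours, up to 3 called genes per pathway list by size (10 TPM or more in 1 group) and the 3 genes most alike to each member. Mtap, Npm1, Huwe1, Chek2, Bax, Bbc3, Pmaip1, Bmi1, Cdk4, Rb1, Trp53inp1 and the markers named were added after their values were seen. A few genes that the rule names are not reported here. Settings varied were the pseudocount (0.1 or 5 TPM), the filter (none or 5 TPM), median-of-ratios scaling, quantile normalization, no trend, voom on the recovered reads, and leaving out each library. RefSeq windows (GRCm38.p6) matched all 5 members.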

Additional observations from a re-analysis of the deposited data

How the results depend on the processing

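Over the 13 alternatives, Trp53 stayed higher and Cdkn2a lower in Pax5-Etv6 B-ALL and both stayed called, with log2 fold changes of 4.47 to 5.28 and -4.79 to -3.92 and adjusted p at most 0.00785 and 0.0185. Mdm2 was called in none of them (0.03 to 0.34, adjusted p from 0.162 to 0.925). Mdm4 ran from -1.21 to -0.76 and lost its call without control replicate 1 (-0.76) and without Pax5-Etv6 replicate 2 (-0.98). With a library left out, Cdkn2b ran from -1.696 to -0.1933; over all alternatives it ran from -3.11 (voom) to -0.13 (pseudocount of 5 TPM), with no value under the filter of 5 TPM, and was called without Pax5-Etv6 replicate 2 (-1.70). Leaving out a library gave 1410 to 2984 genes higher and 1954 to 3350 lower, against 2588 and 3511 in all 5; the lowest counts were without control replicate 1. Each of the 4 ratios kept its direction in the 6 alternatives run for it. The log2 fold change of Pax5, never called, turned to 0.0383 under median-of-ratios scaling, 0.0785 under quantile normalization and 0.0798 under voom, and ran from -0.198 to 0.132 with a library left out. That of Prim2 ran from -0.0092 to 0.247. Of 70 other genes followed over the alternatives, some of them marker genes not named above, 21 lost their call in at least 1 alternative. The median of all genes moved by 0.11 with voom and by 0.10 with no filter, from -0.11. No paired analysis was possible because the labels give no replicate numbers, and those used here only name the libraries. Depth limits Cdkn2b most, with 0 to 89 reads per library.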
